A study of Mus musculus with 21 samples.

Results

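The protocadherins and the Celsr cadherins were examined in the hippocampus, as every gene whose symbol starts with Pcdh and Celsr1, Celsr2 and Celsr3 in 2 deposited tables of normalized counts. The rule found 74 genes of 24411, and no measured value entered it. Of these, 59 belong to the clustered protocadherins: 12 alternate genes of the alpha cluster (Pcdha1 to Pcdha12), 1 further symbol listed as Pcdha7-g, 2 C-type alpha genes, 22 Pcdhb genes, 12 Pcdhga genes, 7 Pcdhgb genes and 3 C-type gamma genes. The other 15 are 4 delta-1 protocadherins (Pcdh1, Pcdh7, Pcdh9 and Pcdh11x), 5 delta-2 protocadherins (Pcdh8, Pcdh10, Pcdh17, Pcdh18 and Pcdh19), Pcdh12, Pcdh15, Pcdh20 and the 3 Celsr genes. All but Pcdh12 and Pcdhb1 reached a mean normalized count of 10 in both experiments, so 72 were tested in each.

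Protocadherins are cadherin-like proteins of the cell surface that bind the same protein on a neighbouring cell. In the clustered family each alternate exon of the alpha and gamma arrays has its own promoter and is spliced to exons shared by its whole array, whereas Pcdhb genes are encoded by a single exon each. A neuron switches on a few alternate promoters, a choice that involves the looping factor CTCF, cohesin and DNA methylation, and the resulting mixture gives it a surface identity used in self-avoidance of dendrites and axons, while C-type genes are active in most neurons. Delta-protocadherins are encoded by separate genes and act in cell adhesion and circuit formation, and the Celsr proteins are adhesion receptors of the planar cell polarity pathway that guide axons, dendrites and cilia.

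RNA came from the hippocampus of 1 hemisphere of 21 perfused male wild-type mice, with polyA-enriched, strand-specific, paired-end libraries. In the transfer experiment, B6.SJL-Ptprca Pepcb/BoyJ mice aged 4 months were injected with a CD8a antibody on days -11 and -7 against their own CD8+ T cells. They then received CD8+ T cells from the spleen and blood of C57BL/6J donors aged 22 to 28 months (aged T, n = 5) or 3 to 4 months (young T, n = 6), so the antibody and a cell transfer were common to both groups. The depletion experiment used mice of 22 to 24 months, given either the CD8a antibody (n = 5) or rat IgG2b as isotype control (n = 5) every 4 days. The comparisons ask how the age of transferred CD8+ T cells, and the removal of CD8+ T cells in old age, relate to hippocampal expression. Differences are given as aged T minus young T and as CD8a antibody minus IgG2b. The tables were normalized separately, so levels are not compared between experiments.

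Libraries held an estimated 9957822 to 15055422 reads assigned to genes. All 10 markers of hippocampal fields were tested in both experiments, with summed normalized counts of 8557 to 13801 in the transfer and 5862 to 11043 in the depletion libraries, and all 8 neocortex markers were tested as well, with sums of 1741 to 3126 and 1544 to 3029.9. No marker of T cells in the list used reached the test's minimum in either experiment, and Cd3d in the transfer experiment and Gzmk in the depletion experiment had 0 reads. Antibody-treated library 5 stood apart: it lay at 57.3 on the first principal component of the depletion experiment, against -28.2 to 6.90 for the other 9 libraries, so depletion results are also given without it. In each experiment the log2 difference of a gene went with the length of its transcript, with a Spearman correlation across genes of -0.494 in the transfer and -0.286 in the depletion experiment. Genes are not independent replicates, and this correlation is a description. Celsr and delta-protocadherin transcripts are long, so values with that trend subtracted are given beside the main ones. In bulk tissue, fewer cells of a type and less RNA per cell cannot be told apart.

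Per kilobase of transcript, 2 C-type gamma genes, Pcdh20 and 2 delta-1 genes were among the most abundant, and among the clustered classes the alternate alpha and the Pcdhb genes had the lowest medians. Pcdhgc3 had a mean normalized count per kb of 551 in the transfer and 390.5 in the depletion experiment, and Pcdhgc5 had 475 and 324. Pcdh20, which lies outside the clusters, had 424 and 307 per kb, Pcdh1 had 332 and 201, and Pcdh9 had 319 and 242. Among the Celsr genes the order was Celsr2, Celsr3 and Celsr1 in both experiments, with 229.6, 69.0 and 13.7 normalized counts per kb in the transfer experiment. The 11 alternate alpha genes with a transcript length had a median of 19.6 and 15.2 per kb. The 21 tested Pcdhb genes lay at a median of 21.2 and 16.6 per kb. The length used was that of the longest GENCODE transcript of each gene, which for some Pcdhb genes exceeds the RefSeq gene. Pcdhb14 was given 8695 bases, while its RefSeq gene runs from 37447657 to 37451094 on chromosome 18. Levels per kb of such genes can therefore be understated. Pcdhb9, the highest Pcdhb gene, reached 93.0 and 120.1 per kb, and Pcdha12 led the alternate alpha genes with 50.1 and 39.1. The endothelial protocadherin Pcdh12 had a mean normalized count of 3.90 ± 2.40 and 6.52 ± 5.59 with aged T and young T cells, and Pcdhb1 had 0.795 ± 0.453 and 1.54 ± 1.46, so neither was tested.

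**Figure D1:**
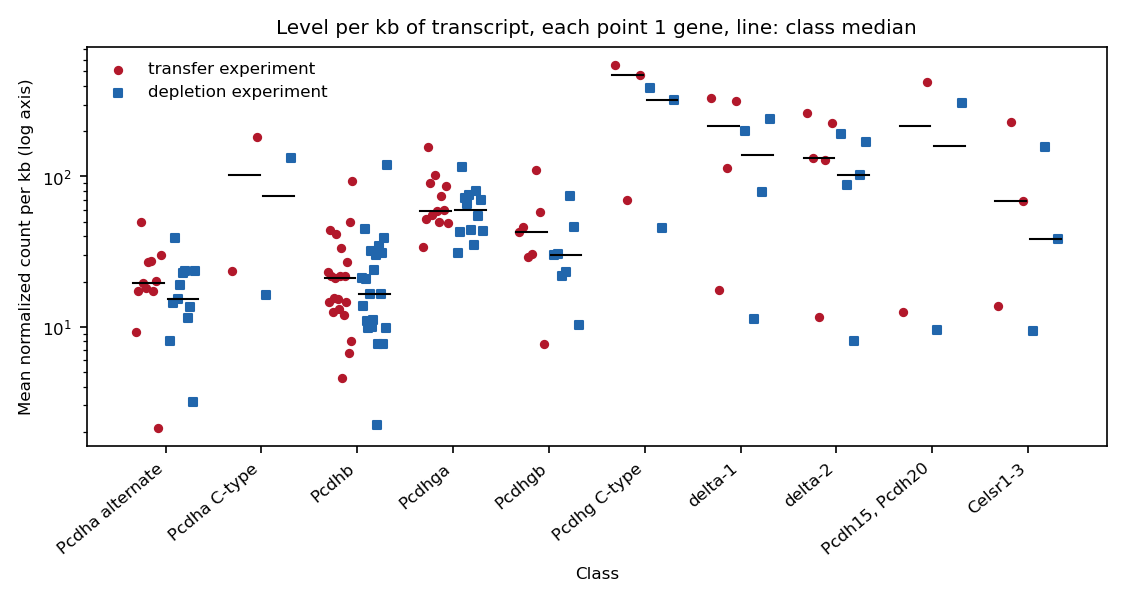
Each point is 1 gene, at its mean normalized count per kilobase of transcript over the libraries of an experiment (log axis), by class, with the class median as a line. The 2 leading C-type gamma genes lie at 323.7 to 550.5 in both experiments, and the medians of the alternate alpha genes and the Pcdhb genes lie at 15.2 to 21.2.

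No protocadherin or Celsr gene passed the test in either experiment by limma, edgeR, DESeq2 or limma-voom at a Benjamini-Hochberg adjusted p of 0.05. By limma the share of all genes called was 0% of 14162 in the transfer and 0.00717% of 13939 in the depletion experiment. DESeq2 called 0.656% of genes in the depletion experiment, and none of them was a protocadherin or Celsr gene. The authors' deposited tables called 0 of these genes as well, with a smallest adjusted p of 0.152 for Celsr3 in the transfer and 0.0972 for Pcdha2 in the depletion experiment. At an unadjusted limma p under 0.05, 5 of 72 genes lay lower and 0 higher in aged T recipients, beside 3.96% of all genes lower and 4.29% higher. With the CD8a antibody, 9 of 72 lay lower and 1 higher, beside 4.15% and 4.31% of all genes. The share over both directions was 8.25% and 8.47% of all genes. By DESeq2 6 genes had such a p in the transfer and 8 in the depletion experiment, beside 8.07% and 8.19% of all genes, and by edgeR 6 and 7, beside 8.88% and 8.97%. The limma counts moved from 2 to 8 lower in the transfer and from 6 to 11 lower in the depletion experiment when 1 library was left out. With a score of fibroblast markers as a covariate, 11 genes were lower and 0 higher at that p in the transfer experiment. The share of all genes in either direction was 6.52%. With a score of ventral less dorsal hippocampus markers, 4 were lower and 1 higher in the depletion experiment, beside 12.5% in either direction. A negative difference was found for 47 of 72 genes in the transfer experiment (65.3%, all genes 51%) and for 52 of 72 in the depletion experiment (72.2%, all genes 50.4%). With the length trend subtracted, 36 of the 70 genes with a transcript length were lower in the transfer and 46 of 70 in the depletion experiment. Without antibody-treated library 5, the depletion count was 38 of 72 lower and the median over these genes -0.017, against -0.15 with all libraries.

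**Figure D2:**
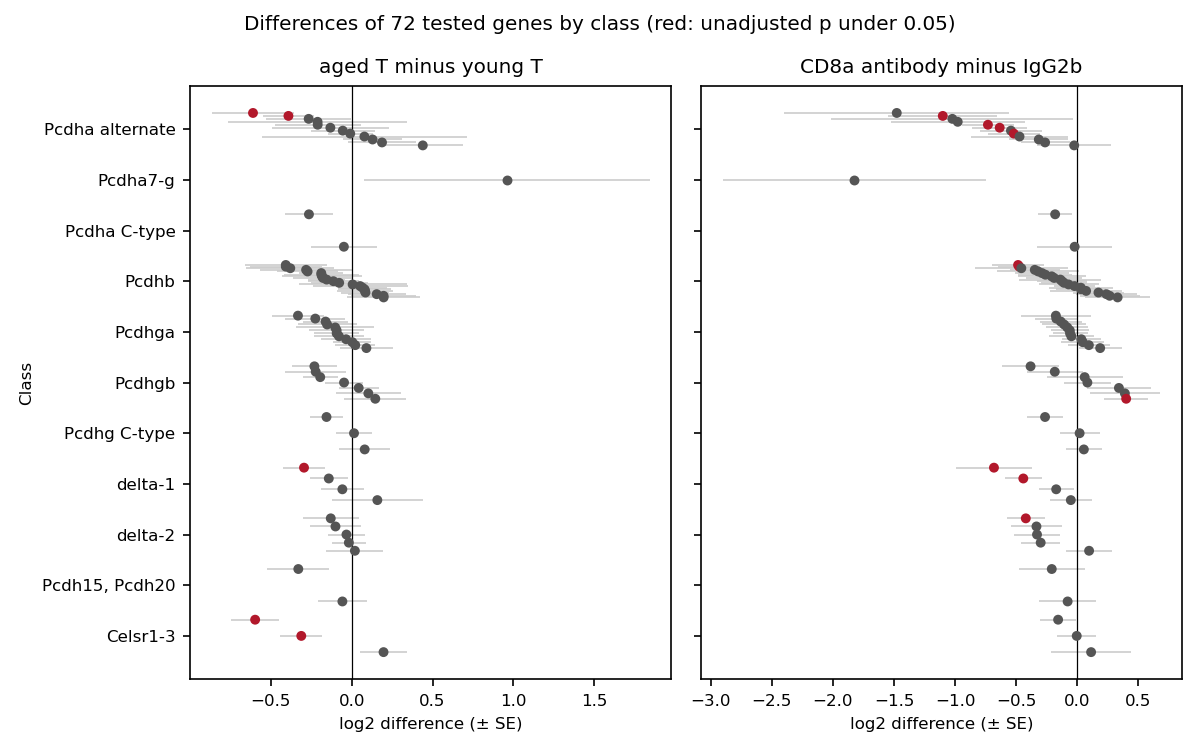
Log2 differences of the 72 tested genes with their standard errors, by class, for aged T minus young T (left) and CD8a antibody minus IgG2b (right), with unadjusted limma p under 0.05 in red. The 12 alternate alpha genes all lie left of 0 on the right, and Celsr3 is the lowest of the Celsr genes on the left.

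Of these genes Celsr3, a receptor that guides long axon tracts in the forebrain, had the smallest p in the transfer experiment and lay lower in aged T recipients. Its normalized count was 679.9, 662, 618, 650.0 and 479 in the 5 aged T recipients, and in the 6 young T recipients it ranged from 744 to 1313 with a median of 898. All aged T recipients lay below all young T recipients, a separation in the lower direction that 0.24% of all tested genes showed, and no other protocadherin or Celsr gene was separated in that direction or, where 0.459% of all genes were, in the higher one. The means were 618 ± 80.7 and 949.7 ± 229 (SD), and the log2 difference was -0.60 (SE 0.15), with an adjusted p of 0.600 by limma and an unadjusted p of 0.000965. The difference was -0.41 with the length trend subtracted and -0.46 with the meningeal and vascular fibroblast score as a covariate. Leaving out 1 library at a time gave -0.66 to -0.50. Celsr3 lies on chromosome 9 from 108826023 to 108852969 in mm10.

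Celsr2, which acts in dendrite growth and in the placing of cilia on ependymal cells, had normalized counts of 2045, 2220.1, 1729, 2841 and 1938 in aged T recipients, and ranged from 2070.4 to 3176 with a median of 2640.0 in young T recipients. The groups overlapped, and aged T library 4 lay above the young T median. Its log2 difference was -0.31 (SE 0.13), with an adjusted p of 0.600 by limma, and -0.14 with the length trend subtracted. Celsr1, best known for neural tube closure, did not follow its relatives. It had 151, 191, 161, 132 and 162 normalized counts in aged T recipients, against a range from 108 to 168 with a median of 143, a log2 difference of 0.20 (SE 0.15). In the depletion experiment the 3 Celsr genes had log2 differences of 0.12, -0.16 and -0.0027, with standard errors of 0.33, 0.15 and 0.16. Celsr3 had 507, 627, 369, 321 and 433 normalized counts with the antibody and 414, 439, 492, 412 and 447 with IgG2b, so the antibody-treated libraries spread to both sides of the controls. Celsr1 in antibody-treated library 5 was 34.3, below all other libraries of that experiment, and without it the Celsr1 log2 difference was 0.49. The transfer and depletion differences come from separate libraries, and their difference was not tested.

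**Figure D3:**
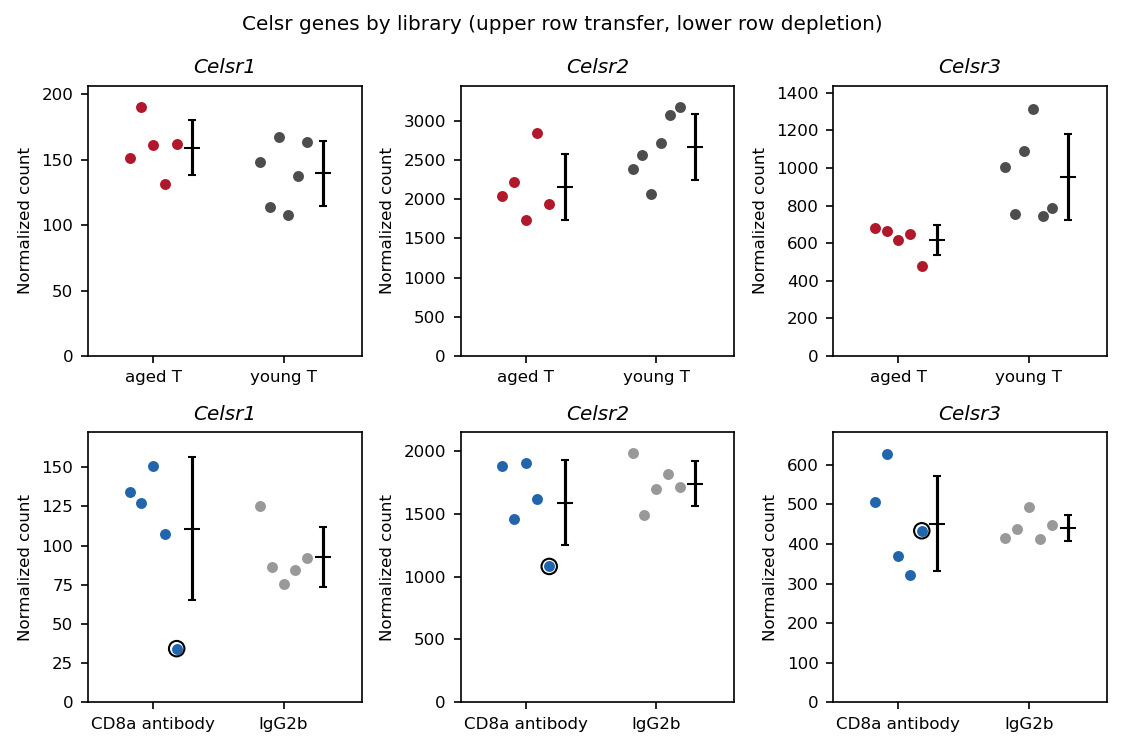
Normalized counts of Celsr1, Celsr2 and Celsr3 in each library (points) with the mean ± SD beside them, for the transfer experiment (upper row) and the depletion experiment (lower row), with antibody-treated library 5 circled. The Celsr3 points of aged T recipients, 479 to 679.9, all lie below those of young T recipients, 744 to 1313.

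The sequences before the starts of Celsr3 and Pcdh19 are shown because Celsr3 had the smallest p of the Celsr genes in the transfer experiment and Pcdh19 that of the delta-2 genes in the depletion experiment. RefSeq promoters of GRCm38.p6 matched 11 of the 74 genes (12 promoters). The bases upstream of the annotated gene, chr9:108825795-108826022 on the + strand for Celsr3 and chrX:133689045-133689243 on the - strand for Pcdh19, are printed 5′ to 3′ on the gene's strand, and capitals mark the GC box (GGGCGG or its reverse complement CCGCCC) and the left part of the RE1 element of the neuronal repressor REST (TTCAGCACC).
Celsr3: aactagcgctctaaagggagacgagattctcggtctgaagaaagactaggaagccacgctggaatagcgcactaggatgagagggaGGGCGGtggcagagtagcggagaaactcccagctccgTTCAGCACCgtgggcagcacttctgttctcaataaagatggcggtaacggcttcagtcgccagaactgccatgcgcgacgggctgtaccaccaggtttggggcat
Pcdh19: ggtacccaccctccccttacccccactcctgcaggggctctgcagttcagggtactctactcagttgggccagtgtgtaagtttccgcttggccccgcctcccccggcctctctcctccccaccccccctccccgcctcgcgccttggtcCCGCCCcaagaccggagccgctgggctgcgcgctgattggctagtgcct

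In the 250 bases before the start, with both strands searched, the GC box was found in 5 of the 12 promoters, beside 32.7% of all 32851 promoters. TTCAGCACC was found in 1 of 12, that of Celsr3, beside 0.301% of all promoters. A core of the CTCF motif was found in 1 of 12 (Pcdh15), beside 7.17%. The letters CGCT, part of the conserved element of clustered protocadherin promoters, were found in all 12, beside 55.7%. None of the 12 promoters belongs to a clustered protocadherin, so that element was not examined in its own family. Overlapping windows of Pcdh9 were counted separately. The 12 promoters were rich in GC, with a median of 63.4% against 52.4% and a median of 17.5 CpG sites against 6. These matches describe the letters of the windows, and no binding was measured.

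Among the clustered genes none passed the test between aged T and young T recipients. Lower values were found for 36 of 58 tested genes, with a median log2 difference of -0.086, beside -0.0045 over all genes, and -0.041 with the length trend subtracted. By class the medians were -0.093 over the alternate alpha genes, -0.11 over the Pcdhb, -0.093 over the Pcdhga and -0.047 over the Pcdhgb genes. The summed normalized count of the 12 alternate alpha genes was 1331 ± 164 with aged T cells and 1387 ± 189 with young T cells, within 1 SD of each other.

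A pair of alternate alpha genes had an unadjusted p under 0.05. Pcdha5 had 127, 99.8, 133, 109.5 and 132 normalized counts in aged T recipients and ranged from 122 to 201 with a median of 161 in young T recipients. All 5 aged T values lay below the young T median, but the groups overlapped from 122 to 133. The Pcdha5 log2 difference was -0.39 (SE 0.16), with an adjusted p of 0.600 by limma. Pcdha10 had 75.6, 84.6, 58.5, 114 and 37.1 in aged T recipients and ranged from 74.4 to 144 with a median of 101 in young T recipients. Aged T library 5 was the lowest of the 11 and library 4 lay above the young T median. The Pcdha10 log2 difference was -0.61 (SE 0.25), adjusted p = 0.600 by limma. The C-type genes, which most neurons express, had log2 differences of -0.26 (SE 0.15) for Pcdhac2, -0.048 (SE 0.20) for Pcdhac1, 0.014 (SE 0.11) for Pcdhgc3 and -0.16 (SE 0.099) for Pcdhgc5. The C-type genes made up 43.8% ± 3.15 of alpha counts with aged T cells and 47.4% ± 1.85 with young T cells, and 50.2% ± 3.43 and 50.1% ± 2.48 of gamma counts.

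Of the delta-protocadherins in the transfer experiment, Pcdh1 had the lowest unadjusted p. This delta-1 adhesion protein is found in neurons, vessels and epithelia. Its normalized count was 1419, 1709, 1266, 2079.7 and 1561 in aged T recipients and ranged from 1491 to 2323 with a median of 1951 in young T recipients. The groups overlapped, with aged T library 4 above the young T median. The log2 difference was -0.29 (SE 0.13), with an adjusted p of 0.600 by limma, and -0.22 with the length trend subtracted. The activity-induced delta-2 gene Pcdh8 had a log2 difference of -0.10 (SE 0.16), Pcdh10 of -0.018 (SE 0.11) and Pcdh19 of -0.13 (SE 0.17), each smaller than its standard error. Pcdh9 lay at -0.14 (SE 0.12), Pcdh7 at -0.058 (SE 0.13) and Pcdh11x, the X-linked delta-1 gene, at 0.16 (SE 0.28). Pcdh20 lay at -0.058 (SE 0.15) and Pcdh15, a part of the tip link of hair cells, at -0.33 (SE 0.19). Over the 14 tested genes outside the clusters the median was -0.079, and 0.026 with the length trend subtracted, which leaves 6 of 14 lower in place of 11. Beside these values, all 9 tested markers of meningeal and vascular fibroblasts lay lower in aged T recipients, with a median log2 difference of -0.66 and summed levels of 3018 to 9291 against 4118 to 17323. With that score as a covariate the median outside the clusters was -0.19 and that of the clustered genes -0.17. Pericyte and smooth muscle markers lay lower for 8 of 8 (median -0.36), 4 of them at an unadjusted p under 0.05 beside 3.96% of all genes. Ependyma markers lay higher for 7 of 8 (median 0.62) and oligodendrocyte markers for 7 of 7 (median 0.34), 3 and 2 of them at that p beside 4.29%. The part of these markers in the values of Celsr2, Pcdh1 and the other genes was not tested.

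In the depletion experiment the alternate genes of the alpha cluster lay lower with the CD8a antibody, 12 of 12 by sign and 4 of 12 at an unadjusted p under 0.05, beside 50.4% and 4.15% of all genes. By DESeq2 and edgeR 11 of 12 were lower, and in the authors' deposited table Pcdha4 lay at 0.026. The median log2 difference of the 12 by limma was -0.59, beside -0.0020 over all genes, and none passed adjustment. The 12 ranged from -1.48 to -0.024 by limma, and in the authors' deposited table from -0.88 (Pcdha1) to 0.026 (Pcdha4). Pcdha6 and Pcdha7, each listed at 0 in antibody-treated library 4, had deposited values of -0.61 (SE 0.81) and -0.087 (SE 0.83). By limma single values near 0 weigh more than in a ratio of mean counts, so the limma range and median can depend on them. Without antibody-treated library 5, 11 of 12 were lower with a median of -0.66, and with the length trend subtracted 10 of the 11 with a length were lower with a median of -0.49. Their summed normalized count was 1096, 754, 1137, 1006 and 882 in the antibody-treated libraries and 1361, 1095, 1262, 1351 and 1209.8 with IgG2b. The groups overlapped only through antibody-treated libraries 1 and 3 and IgG2b library 2. The means of the sum were 975 ± 157 and 1256 ± 109.9 (SD). The 2 C-type alpha genes, which share the constant exons, lay closer to 0 than that median: Pcdhac2 had a log2 difference of -0.18 (SE 0.14) and Pcdhac1 of -0.020 (SE 0.31). The C-type genes made up 45.0% ± 2.68 of alpha counts with the antibody and 41.2% ± 1.54 with IgG2b. In the gamma cluster the share was 46.4% ± 1.61 and 45.9% ± 3.85.

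Pcdha2 had the smallest p of these genes in the depletion experiment. Its normalized count was 62.3, 71.3, 76.1, 35.8 and 64.7 with the antibody and 117, 77.1, 116, 96.4 and 101 with IgG2b. All antibody-treated libraries lay below all controls, a separation that 1.27% of all tested genes showed in the lower direction. The nearest Pcdha2 values were 76.1 in antibody-treated library 3 and 77.1 in IgG2b library 2. In those libraries 1 count before normalization equals 1.03 and 0.929, so the gap is narrow. No other of these genes was separated, and 0.782% of all genes were in the higher direction. The means were 62.0 ± 15.7 and 101 ± 16.3, and the log2 difference was -0.73 (SE 0.21), with an adjusted p of 0.324 by limma, 0.0972 by DESeq2 and 0.329 by edgeR. In the transfer experiment Pcdha2 lay at 0.13 (SE 0.18). Its gene spans 36939205 to 37187661 on chromosome 18 in mm10, up to the shared constant exons.

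Pcdha10 had 55.1, 54.6, 94.6, 46.9 and 73.5 with the antibody and 77.7, 75.3, 95.5, 127 and 128 with IgG2b, with overlap from antibody-treated library 3. Its log2 difference was -0.63 (SE 0.23), adjusted p = 0.435 by limma. Pcdha10 was the only gene of the 72 with an unadjusted limma p under 0.05 in both experiments, lower in aged T recipients and lower with the antibody. Of all genes, 8.25% in the transfer and 8.47% in the depletion experiment had such a p. The share of all genes with such a p in both was not counted. Pcdha9 had 146, 84.7, 83.3, 103 and 98.0 against 201, 125, 169, 94.7 and 157, with overlap through antibody-treated libraries 1, 4 and 5 and IgG2b libraries 2 and 4. That gave a log2 difference of -0.52 (SE 0.21). Pcdha1 had 33.5, 40.1, 12.3, 7.82 and 53.9 against 85.5, 34.4, 52.1, 54.5 and 45.1, a spread of several fold among the antibody-treated libraries. The Pcdha1 log2 difference was -1.10 (SE 0.45), and DESeq2 and edgeR gave -0.88 and -0.86. The most abundant alternate gene, Pcdha12, had 192 ± 60.5 against 225 ± 40.7, a log2 difference of -0.26 (SE 0.20).

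**Figure D4:**
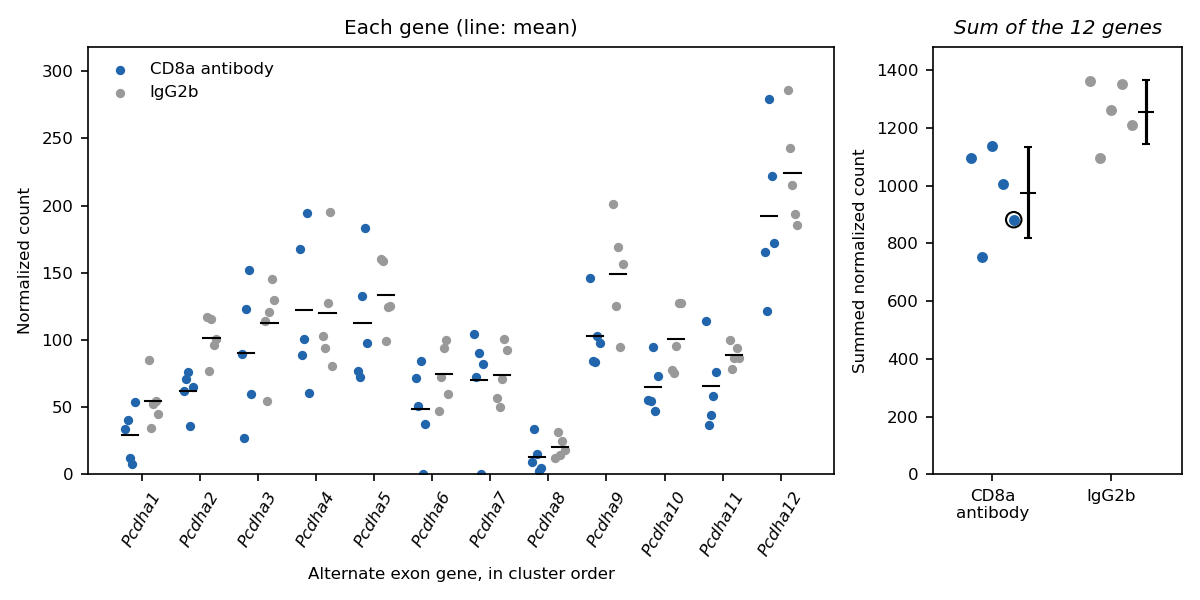
Normalized counts of the 12 alternate alpha genes in each library of the depletion experiment (left, line at the mean) and their sum per library with the mean ± SD (right), with antibody-treated library 5 circled. The sums with the antibody lie between 754 and 1137, and those with IgG2b between 1095 and 1361.

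The alternate alpha values depend on how reads in shared exons were divided. In the GENCODE annotation a median of 53.6% of the exon bases of an alternate alpha gene (2860 bases) also belonged to other protocadherin genes, against about 45.4% (2119 bases) for a Pcdhgb gene and 0% for the median Pcdhb gene. The submitters' notes name RSEM, which assigns such reads by estimate. Pcdha6 and Pcdha7 were each listed at 0 in antibody-treated library 4, against 37.2 to 99.8 for Pcdha6 in the other 9 libraries. Values of single genes of the alpha and gamma clusters are therefore uncertain, and the part of this division in the differences was not tested. Beside them, all 6 tested ventral hippocampus markers lay lower with the antibody, 5 at an unadjusted p under 0.05 beside 4.15% of all genes. Coch, the remaining marker, lay at -0.0049. The ventral median was -0.69, and summed levels were 1709 to 2510.3 against 2729 to 3501, which do not overlap. Of the 5 dorsal markers, 2 were lower and 3 higher, 1 each at that p beside 4.15% and 4.31% of all genes. Nov lay at -0.56 and Lct at 0.84. Of the 10 hippocampal field markers, 8 were higher, 3 of them at that p beside 4.31%. The 2 lower ones included 1 at that p beside 4.15%. With the score of ventral less dorsal markers in the fit, 11 of the 12 alternate alpha genes were lower, with a median of -0.68. Pcdha2 lay at -0.57, with an SE of 0.31 against 0.21 without the covariate. The score itself differed between the groups, with means of -1.12 with the antibody and -0.45 with IgG2b. This fit therefore cannot fully separate the score from the treatment. Of the 7 pan-neuronal markers, 6 were lower, with a median of -0.13 and summed levels of 61406 to 70883 against 70648 to 80093. Of the 9 inhibitory neuron markers, 7 were lower with a median of -0.30, and all 7 oligodendrocyte markers were higher with a median of 0.41. Markers of microglia were higher for 7 of 7 (median 0.28), of pericytes and smooth muscle for 7 of 8 (median 0.32), of endothelium for 8 of 8 (median 0.22) and of ependyma for 7 of 7 tested (median 0.54). At an unadjusted p under 0.05, 3 inhibitory neuron, 1 pan-neuronal and 1 fibroblast marker were lower, beside 4.15% of all genes. Higher at that p were 4 oligodendrocyte, 4 microglia, 3 pericyte, 1 endothelial, 2 ependymal, 1 astrocyte and 1 oligodendrocyte precursor markers, beside 4.31%. Astrocyte markers were higher for 5 of 6 (median 0.13) and choroid plexus markers for 8 of 8 (median 0.46). Fibroblast markers were higher for 7 of 9 (median 0.21). Lower were neocortex markers for 7 of 8 (median -0.15) and oligodendrocyte precursor markers for 5 of 7 (median -0.17). The part of these cell types in the result was not tested.

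The Pcdhb and gamma genes gave no common direction with the antibody. Of 21 tested Pcdhb genes 14 lay lower, with a median of -0.12, and without antibody-treated library 5 the median was -0.011. Pcdhb12 had 92.2, 96.9, 143, 131 and 106 normalized counts against 148, 130.1, 142, 163 and 208, with overlap from antibody-treated libraries 3 and 4. The Pcdhb12 log2 difference was -0.47 (SE 0.17), adjusted p = 0.444 by limma. Pcdhb13 had 50.3, 62.4, 74.0, 97.2 and 44.1 against 81.1, 88.3, 79.0, 117 and 82.7, and antibody-treated library 4 lay among the controls. The Pcdhb13 log2 difference was -0.48 (SE 0.22), and Pcdhb9, the most abundant Pcdhb gene, lay at -0.021 (SE 0.17). Of the 12 Pcdhga genes 8 were lower, with a median of -0.059. Without antibody-treated library 5 only 3 of 12 were lower and the median was 0.025, and with the score of ventral less dorsal markers in the fit 10 were lower with a median of -0.25. With all libraries and no covariate the log2 differences were -0.058 (SE 0.14) for Pcdhga11 and -0.060 (SE 0.16) for Pcdhga3, the leading pair by level.

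By sign the Pcdhgb genes lay the other way, with 5 of 7 higher and a median of 0.085, which was 0.30 without antibody-treated library 5. Pcdhgb7 had 230.0, 324, 234, 276 and 178 with the antibody and 216, 140.3, 154, 203 and 224 with IgG2b, with antibody-treated library 5 inside the control range. Its log2 difference was 0.40 (SE 0.18), adjusted p = 0.563 by limma, the only one of the 72 genes higher at an unadjusted p under 0.05. Without antibody-treated library 5 the number of these genes higher at that p was 5, with 9 lower, beside 13.2% of all genes in either direction. Pcdhgb6 lay at 0.085 (SE 0.20), with 374, 358, 429.7, 469 and 193 against 357, 324, 343, 286 and 341. The antibody-treated library 5 was the lowest of the 10. The C-type gamma genes Pcdhgc3 and Pcdhgc5 differed by less than their standard errors, 0.056 (SE 0.15) and 0.021 (SE 0.16), while the third, Pcdhgc4, lay at -0.26 (SE 0.15).

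The delta-protocadherins lay lower with the antibody for all 4 delta-1 genes (median -0.31) and for 4 of 5 delta-2 genes (median -0.33). Antibody-treated library 5 was the lowest of the antibody-treated libraries for Pcdh7, Pcdh19, Pcdh11x, Pcdh10, Pcdh17 and Pcdh8, and without it 3 of 4 and 4 of 5 were lower, with medians of -0.19 and -0.18. Pcdh7, a delta-1 protein of forebrain neurons on chromosome 5 from 57716145 to 58133236 in mm10, had 502, 718, 646, 697 and 412 normalized counts with the antibody and 938, 702, 717, 811 and 804 with IgG2b. All antibody-treated values lay below the IgG2b median, and only antibody-treated library 2 lay within the control range. Its log2 difference was -0.44 (SE 0.15), adjusted p = 0.425 by limma, -0.33 with the length trend subtracted and -0.32 without library 5.

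Pcdh19, an X-linked gene mutated in a form of epilepsy, had 829, 1035, 1034, 1089 and 592 with the antibody and 1048, 1112, 1168, 1343 and 1345 with IgG2b. Antibody-treated library 4 lay within the control range, and the other 4 lay below it. The Pcdh19 log2 difference was -0.42 (SE 0.16), adjusted p = 0.457 by limma, and -0.27 without library 5. Its gene lies on chromosome X from 133582860 to 133689044, and its upstream bases are printed with those of Celsr3. Pcdh11x had 68.3, 140.4, 81.2, 99.4 and 30.4 against 161, 122, 102, 106 and 121, with antibody-treated library 2 above most controls. Its log2 difference of -0.68 (SE 0.31) was -0.36 without library 5. It was -0.16 (SE 0.42) with the score of ventral less dorsal markers in the fit. With that covariate, which itself differed between the groups, Pcdh7 lay at -0.29 (SE 0.22) and Pcdh19 at -0.34 (SE 0.23).

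Pcdh10, a delta-2 protein of cortical and limbic circuits, had 1424 ± 325 against 1731 ± 287 normalized counts, a log2 difference of -0.30 (SE 0.16). Pcdh8, also called arcadlin, was the delta-2 gene without a negative value. It had 798 ± 188 against 742 ± 159, a log2 difference of 0.099 (SE 0.19). Pcdh9 lay at -0.17 (SE 0.14), Pcdh1 at -0.051 (SE 0.17), Pcdh20 at -0.077 (SE 0.23) and Pcdh15 at -0.21 (SE 0.27). Over all 14 tested genes outside the clusters, 12 were lower with a median of -0.19. Without antibody-treated library 5, 8 were lower with a median of -0.040, and with the length trend subtracted the median was -0.093.

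**Figure D5:**
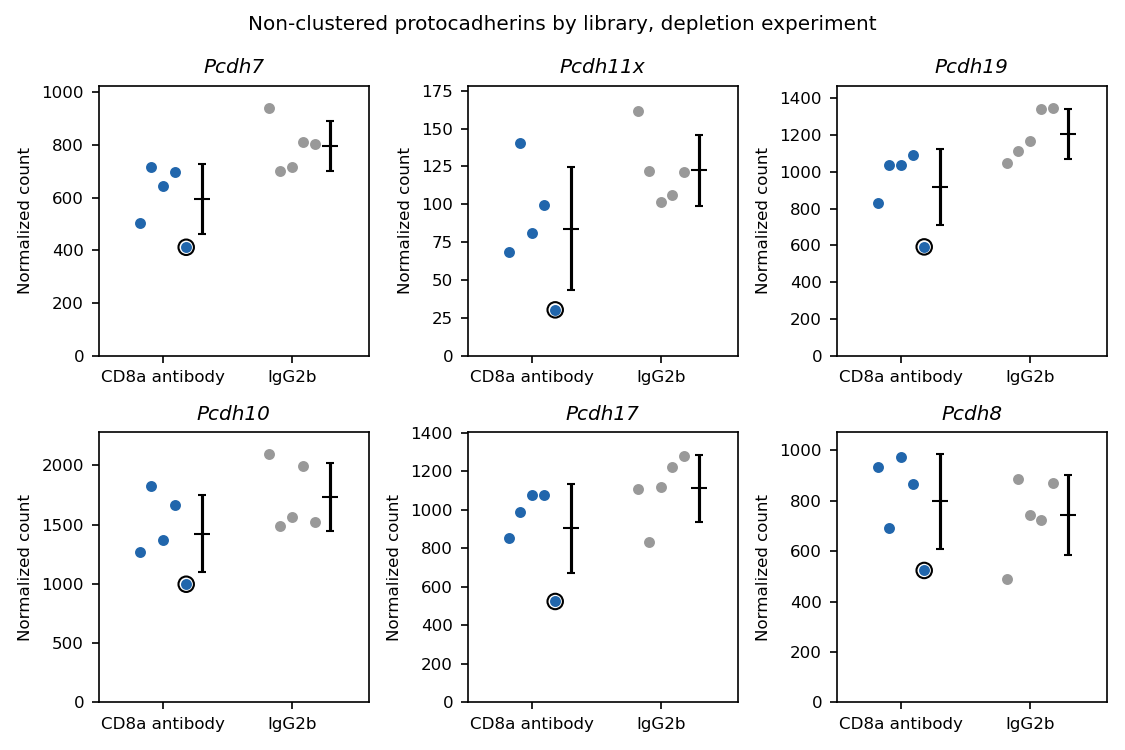
Normalized counts of 6 delta-protocadherins in each library of the depletion experiment (points) with the mean ± SD beside them, antibody-treated library 5 circled. The antibody-treated values of Pcdh7 lie between 412 and 718 and those with IgG2b between 702 and 938, while the ranges of Pcdh8 coincide over most of their width.

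The genes that work with these proteins were listed in 6 groups, and no member of any list passed the test by limma in either experiment. Of 20 tested factors of clustered promoter choice and chromatin, 16 lay lower in aged T recipients (median -0.11) and 17 with the antibody (median -0.094). With the length trend subtracted those medians were -0.017 and -0.029. In the transfer experiment the histone methyltransferase Setdb1 had 470.2 ± 20.4 against 568 ± 61.3 normalized counts, a log2 difference of -0.27 (SE 0.086), and the cohesin subunit Stag1 had 485 ± 48.3 against 557 ± 38.6, a log2 difference of -0.20 (SE 0.087). These 2 genes were the list's members with an unadjusted p under 0.05, beside 8.25% of all genes. With the antibody the maintenance DNA methyltransferase Dnmt1 had 488 ± 35.4 against 581 ± 48.7, a log2 difference of -0.25 (SE 0.10), and the promoter factor Zfp143 lay at -0.15 (SE 0.12). Dnmt1 alone of the 20 had an unadjusted p under 0.05, beside 8.47% of all genes.

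Of 27 processing enzymes and cytoplasmic partners, 17 lay lower in aged T recipients (median -0.035) and 12 with the antibody (median 0.0099). Those medians were -0.017 and 0.0057 with the length trend subtracted. The phosphatase subunit Ppp1ca lay at 0.17 (SE 0.080) and the gamma-secretase subunit Aph1a at 0.16 (SE 0.086) in the transfer experiment, and the synaptic adhesion gene Nlgn1 at -0.31 (SE 0.15) with the antibody. Of the planar cell polarity partners of Celsr, 19 of 26 lay lower in aged T recipients (median -0.096), with the effector Fuz at 0.25 (SE 0.12) and Sestd1 at -0.23 (SE 0.11). Subtracting the length trend gave a median of -0.022, with Fuz at 0.21 and Sestd1 at -0.080. With the antibody 12 of 25 were lower (median 0.0043, or 0.027 with the length trend subtracted). At an unadjusted p under 0.05 were 2 lower and 3 higher, beside 4.15% and 4.31% of all genes. The receptor Fzd6 had 118 ± 16.4 against 75.5 ± 20.4 normalized counts, a log2 difference of 0.66 (SE 0.19), and the adaptor Dvl2 had 201 ± 26.2 against 151 ± 13.7, a log2 difference of 0.41 (SE 0.13). The list thus had members on both sides of 0 in the depletion experiment.

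Other genes of the cadherin superfamily gave 22 of 32 lower in aged T recipients (median -0.12), where the giant cadherin Fat4 lay at -0.44 (SE 0.17) and Cdh12 at -0.33 (SE 0.16). The median was -0.035, Fat4 -0.20 and Cdh12 -0.24 with the length trend subtracted. With the antibody 18 of 30 were lower, with a median of -0.092, and of 0.018 with the length trend subtracted. N-cadherin (Cdh2), which protocadherins can bind beside them in the membrane, had 1444 ± 159 against 1779.8 ± 139.7 with the antibody and IgG2b, a log2 difference of -0.31 (SE 0.10), and the desmosomal gene Dsc3 lay at -0.91 (SE 0.31). Catenins, the cytoplasmic partners of classical cadherins, gave 5 of 9 and 2 of 8 lower, with medians of -0.024 and 0.080. Subtracting the length trend made these medians 0.028 and 0.12. Ctnnd1 lay at -0.14 (SE 0.097) and Ctnnd2 at -0.12 (SE 0.091) in the transfer experiment, and Ctnna1 at 0.21 (SE 0.12) and Jup at 0.19 (SE 0.15) in the depletion experiment. Of 17 activity-regulated genes, listed because neuronal activity induces Pcdh8, 13 lay lower in aged T recipients (median -0.15) and 7 with the antibody (median 0.092). Length-subtracted medians of this list were -0.15 and 0.080. Fosb lay at -0.42 (SE 0.22) and Nr4a2 at -0.31 (SE 0.17) in aged T recipients, and with the antibody Homer1 lay at -0.33 (SE 0.15) and Egr4 at 0.35 (SE 0.19).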

How the data were processed

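RNA of 21 hippocampi was compared within each of 2 experiments. Per the submitters' processing notes, STAR, RSEM and DESeq2 were used with mm10. The annotation is not given in the sources used here, and neither are versions or counting settings. Per the file headers, each deposited table holds normalized counts, a signal obtained from reads by dividing by a library's size factor. The authors' tables also give a log2 fold change, its standard error and test statistic (a score) and p-values from their own comparison, signed as control over treated and turned here.

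All values were whole multiples of 1 step per library (relative tolerance 1e-06), so whole counts were recovered. Because RSEM assigns shared reads by estimate, these counts can be rounded estimates of reads. Each experiment was fitted alone and whole with limma 3.58.1 (R 4.3.3, limma-trend on log2(normalized count + 1), mean normalized count of at least 10, no covariate), with Benjamini-Hochberg adjustment over all genes tested and calls at 0.05. On that scale the pseudocount narrows differences of low values, while single values near 0 weigh more than in a ratio of mean counts, so differences of weakly expressed genes can be smaller or larger than by DESeq2 or edgeR. edgeR 4.0.16, DESeq2 1.42.0 and limma-voom on the recovered counts, other pseudocounts and filters, TMM scaling, marker scores as covariates and leaving out each library were alternatives. Scripts were tested on simulated counts. A lowess trend of the difference on transcript length (longest GENCODE vM21 transcript of each gene, 72 of 74 genes) was subtracted for description.

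Genes named are the Celsr genes, every gene with an unadjusted p under 0.05, the 2 most abundant of each class, the untested genes, and the 2 of each partner list with the smallest p. The genes and lists were chosen with earlier results of these data known. Libraries are separately named samples, and p-values measure only the spread between them. Read totals cover counting error only.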

Additional observations from a re-analysis of the deposited data

Results flagged for a closer look

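Values of single libraries far from the rest of their group, by Dixon's ratio at its 95% critical value, were found in 3 of 128 groups of 5 or 6 libraries, where chance gives about 1 in 20. Pcdhb1 was at 0 in aged T library 5, against 0.891 to 1.13 in the other 4, a gene below the test's minimum. Pcdha1 was at 99.9 in young T library 2, against 29.1 to 48.4 in the other 5. Pcdhb13 was at 117 in IgG2b library 4, against 79.0 to 88.3 in the other 4, and leaving that library out moved the Pcdhb13 difference to -0.39.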

How the results depend on the processing

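No protocadherin or Celsr gene was called under any alternative, with 1 library left out or otherwise. Over all genes, the depletion count of 1 became 92 with DESeq2, 0 with no filter on low values, 0 with the ventral minus dorsal covariate, and 0 to 25 with 1 library left out, the highest without antibody-treated library 5. The cause was not tested. The 12 of 12 alternate alpha genes lower in the depletion experiment were 11 or 12 of 12 with 1 library left out, 11 by DESeq2, 11 by edgeR, 11 with the fibroblast and 11 with the ventral minus dorsal covariate, and 10 both with the length trend subtracted and at a mean of 50 or more, where fewer genes have a value. No paired analysis was possible because the sample names share no replicate numbers between the groups compared. The differences of named genes that changed sign, mostly small ones, were as follows. By DESeq2, in the transfer experiment Pcdhga11 was at -0.013, and in the depletion experiment Celsr3 was at 0.034, Pcdhac1 was at 0.050 and Pcdhb9 was at 0.010. With TMM scaling, in the transfer experiment Pcdhga11 was at -0.00019, and in the depletion experiment Celsr3 was at 0.0054. By edgeR, in the transfer experiment Pcdhga11 was at -0.016, and in the depletion experiment Celsr3 was at 0.043, Pcdhac1 was at 0.054 and Pcdhb9 was at 0.017. With the fibroblast covariate, in the transfer experiment Pcdha7-g was at -0.59, Pcdhga11 was at -0.030 and Pcdhgb6 was at -0.052. With the length trend subtracted, in the transfer experiment Pcdh10 was at 0.12, Pcdh19 was at 0.040, Pcdh20 was at 0.011, Pcdh7 was at 0.088, Pcdha12 was at 0.063, Pcdha9 was at 0.017 and Pcdhac1 was at 0.026, and in the depletion experiment Celsr3 was at 0.14 and Pcdhac1 was at 0.031. By limma-voom, in the transfer experiment Pcdhga11 was at -0.0021, and in the depletion experiment Celsr3 was at 0.0038. With the ventral minus dorsal covariate, in the depletion experiment Celsr3 was at 0.28, Pcdh15 was at 0.27 and Pcdhgc5 was at -0.26. With 1 library left out, 67 differences changed sign. In the transfer experiment Pcdh10 ranged from -0.058 to 0.062, Pcdh20 ranged from -0.15 to 0.029, Pcdh7 ranged from -0.12 to 0.038, Pcdh8 ranged from -0.19 to 0.013, Pcdha1 ranged from -0.38 to 0.16, Pcdha12 ranged from -0.12 to 0.050, Pcdha9 ranged from -0.21 to 0.075, Pcdhac1 ranged from -0.20 to 0.033, Pcdhga11 ranged from -0.054 to 0.077, Pcdhgb6 ranged from -0.052 to 0.097 and Pcdhgc3 ranged from -0.064 to 0.088. In the depletion experiment Celsr1 ranged from -0.036 to 0.49, Celsr3 ranged from -0.13 to 0.11, Pcdh1 ranged from -0.15 to 0.087, Pcdh15 ranged from -0.41 to 0.031, Pcdh20 ranged from -0.30 to 0.038, Pcdh8 ranged from -0.043 to 0.24, Pcdhac1 ranged from -0.27 to 0.15, Pcdhb9 ranged from -0.096 to 0.14, Pcdhga11 ranged from -0.15 to 0.020, Pcdhga3 ranged from -0.16 to 0.018, Pcdhgb6 ranged from -0.021 to 0.30, Pcdhgc3 ranged from -0.051 to 0.17 and Pcdhgc5 ranged from -0.075 to 0.13. Depth limits Pcdh12 and Pcdhb1, with 4 to 40 reads in total per group.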

Other observations

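The symbols Pcdha7 and Pcdha7-g showed unusual values. Pcdha7 was listed at 0 in antibody-treated library 4, where Pcdha7-g had its highest value of the depletion experiment, 68.2. Pcdha7-g was listed at 0 in antibody-treated libraries 1 and 2, where Pcdha7 had 104 and 72.4. In the transfer experiment Pcdha7 was lowest in aged T library 3 at 13.5, where Pcdha7-g was highest at 125, and Pcdha7 was 29.5 in young T library 2, where Pcdha7-g was 83.1. The Pcdha7-g log2 difference of -1.83 (SE 1.08) in the depletion experiment rests on the libraries listed at 0. By edgeR and DESeq2 it was -0.32 and -0.34. These symbols were singled out after their values were seen.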
